A study of Homo sapiens with 4 samples.

Results

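Genes of mitochondrial protein import and quality control were examined in ARP-1 and MM.1S, established human cell lines from multiple myeloma, which arises from plasma cells, with and without a hairpin against MIF. The genes were given by name: 40 subunits, chaperones and proteases of this machinery, sorted into 6 role groups. A named probe set was found for 33 of the 40, out of 14884 genes with a named probe set in all. Of these, 32 passed the filter on low values, a mean at or above the median gene's, as did 7442 genes in all. MIPEP, the intermediate peptidase of the matrix, was measured below the filter, and HSPE1, LONP1, CLPP, GRPEL1, DNAJA3, DNLZ and PAM16 were not analysed here.

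Per the labels' protocols, MIF-KO cells carried a lentivirus with an shRNA against MIF, CTR-KO cells one with a control shRNA, and GFP-positive cells were sorted from both. MIF is a secreted cytokine. An shRNA lowers a transcript and leaves the gene in place, so KO here denotes a knockdown, and every array comes from a transduced line. There was 1 array for each line and condition, 4 in all: MIF-KO ARP-1, CTR-KO ARP-1, MIF-KO MM.1S and CTR-KO MM.1S. In such bulk RNA, fewer cells of a kind and less RNA per cell cannot be told apart. No source tells of separate cultures, so p-values measure only the spread between these arrays, which may be technical.

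Most mitochondrial proteins are made in the cytosol and enter through the TOM complex of the outer membrane. Small TIM chaperones carry hydrophobic precursors across the intermembrane space, the TIM23 complex and its motor draw presequence proteins into the matrix, and peptidases remove the presequence. Matrix chaperones then fold the chain, and proteases of the matrix and inner membrane degrade what fails to fold. Plasma cells, which secrete antibody on a large scale, depend on protein quality control in several compartments.

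Median probe set intensities lay between 13.1 and 13.3 on the 4 arrays. MIF, the target of the hairpin, had an intensity of 541 in MIF-KO ARP-1, against 1092 in CTR-KO ARP-1, and of 405 in MIF-KO MM.1S, against 1012 in CTR-KO MM.1S. It was thus lower on both MIF-KO arrays as titled, whereas the free-text descriptions of the ARP-1 arrays state the reverse condition. All 6 named plasma cell and myeloma markers of 9 passed the filter (intensities 41 to 4380), and the 3 named markers of other cells, of 8, ranged from 6.99 to 10.2 and did not. Of the plasma cell markers, SDC1 and CD38 stood at 39% and 36.8% of CTR-KO in MIF-KO ARP-1. MZB1 stood at 64.8% of CTR-KO in MIF-KO MM.1S. IRF4, XBP1 and SLAMF7 stayed under 1.5-fold in both lines. The ARP-1 arrays did not lie together: 1697 tested genes were at least 1.5-fold apart between them, and 494 between CTR-KO MM.1S and MIF-KO ARP-1, the closest pair of arrays. The MM.1S arrays, with 596 genes that far apart, were the next closest pair, and CTR-KO MM.1S was the array nearest to MIF-KO MM.1S. At least 4-fold apart were 43 tested genes between the ARP-1 arrays and 0 between the MM.1S arrays. Across the lines, 44 were that far apart between the CTR-KO arrays and 6 between the MIF-KO arrays. Between MIF-KO MM.1S and CTR-KO ARP-1 there were 20, and between CTR-KO MM.1S and MIF-KO ARP-1 only 2. The values of MIF bear on the condition labels alone, and the line labels were not checked here.

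The import and quality control genes ranked the farthest pairs of arrays as all tested genes did, but not the closest pairs. Between MIF-KO ARP-1 and CTR-KO ARP-1, 13 of 32 were at least 1.5-fold apart (22.8% of all tested genes), and between CTR-KO MM.1S and CTR-KO ARP-1, 12 were (22.3%). Between MIF-KO MM.1S and MIF-KO ARP-1, 8 were (12.6%), and between the MM.1S arrays, 7 (8.01%). Between CTR-KO MM.1S and MIF-KO ARP-1, 2 of 32 were that far apart, CHCHD4 and TIMM44, both with the higher value in CTR-KO MM.1S, beside 6.64% of all tested genes. MIF-KO MM.1S and CTR-KO ARP-1 had 1 of the 32 that far apart, TOMM40, lower in MIF-KO MM.1S, beside 10.5% of all tested genes. Each result is therefore given for each line on its own, and the MM.1S values are those without the CTR-KO ARP-1 array.

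Most genes of the machinery had lower values in MIF-KO than in CTR-KO cells of ARP-1, and higher values in MIF-KO than in CTR-KO cells of MM.1S. At 1.5-fold, 12 of 32 genes were lower in MIF-KO ARP-1 (background 11.9% of all tested genes) and 1 was higher (background 10.9%). In MM.1S, 7 of 32 were higher in MIF-KO (background 5.12%) and 0 were lower (background 2.89%). The median log2 difference, MIF-KO minus CTR-KO, was -0.45 in ARP-1, beside -0.03 over all tested genes, and 0.25 in MM.1S, beside 0.04. A difference below 0 in ARP-1 together with one above 0 in MM.1S was found for 21 of 32 genes, and for 37.5% of all tested genes. The highest value of the 4 arrays lay on CTR-KO ARP-1 for 19 of 32 genes, and for 32.1% of all tested genes. The genes were chosen with earlier results of these data known, so these counts beside the background are a description and no test.

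**Figure D1:**
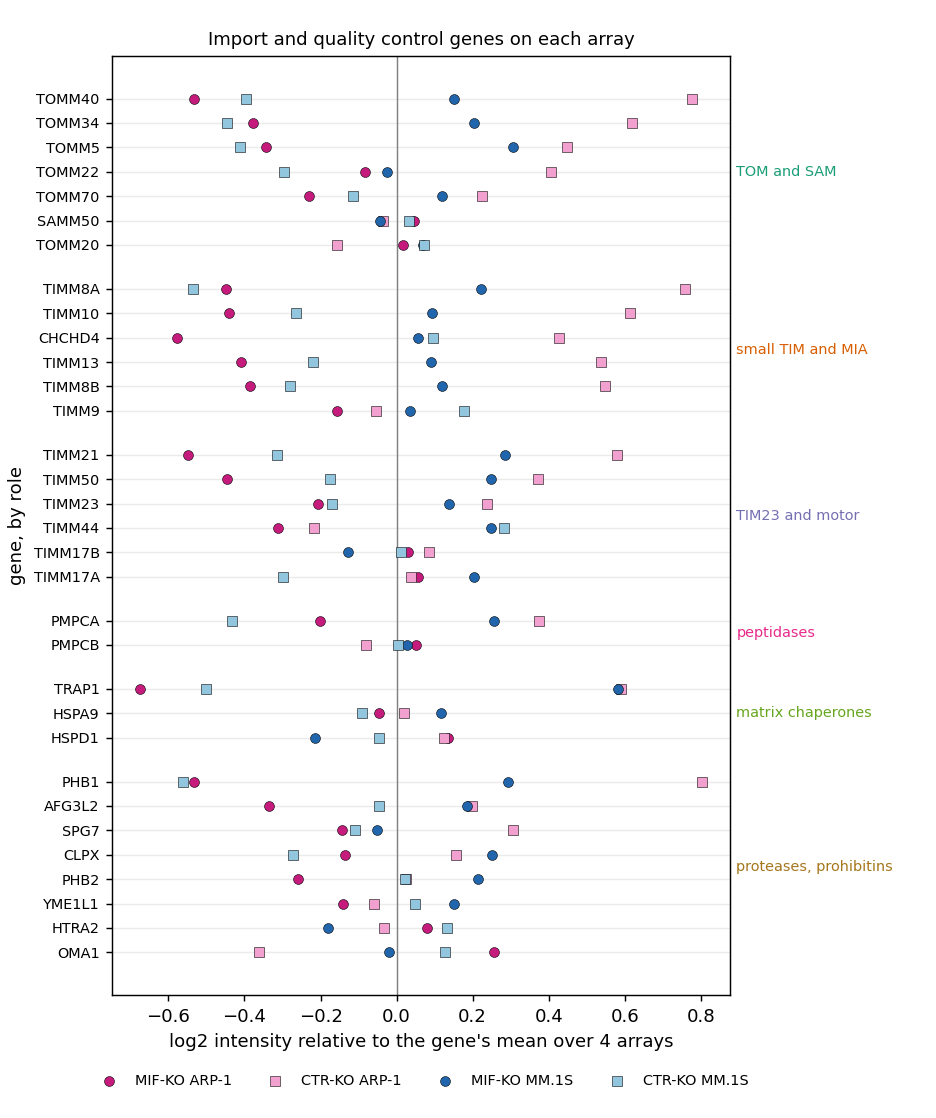
Log2 intensity of the 32 tested genes on each of the 4 arrays, relative to the gene's own mean over the arrays (x axis), with genes in rows by role. Circles are MIF-KO arrays and squares CTR-KO arrays. CTR-KO ARP-1 is the highest array for 19 of the 32 genes, and for TRAP1, PHB1 and TIMM8A the MIF-KO ARP-1 array lies beside CTR-KO MM.1S on the low side.

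Over both lines, no gene of the machinery passed. The limma test of MIF-KO against CTR-KO, with cell line as a term, called 0 of the 32 and 0% of the 7442 tested genes at an adjusted p below 0.05. At an unadjusted p below 0.05 it had 0 of the 32 and 29 of all tested genes, and the lowest adjusted p of any gene was 0.99995. MIF itself did not pass it, with a mean log2 difference of -1.17 (SE 0.29, limma adjusted p = 0.99995). Its unadjusted limma p of 0.0104 was nonetheless the lowest of all tested genes. With 1 array per line and condition, the error of this fit is how far the lines disagree, moderated over all genes. Of the 32 genes, CHCHD4 had the smallest p, with a mean difference of -0.52 (SE 0.30). With the ARP-1 arrays exchanged, as their descriptions would have it, limma called 7 of the 32 and 401 genes in all, and MIF would then be the higher in MIF-KO ARP-1. Because 1 array stood for each line and condition, the differences within a line that follow carry no replicate check and no test. Levels are linear intensities, and differences are log2 MIF-KO minus CTR-KO, with ARP-1 given before MM.1S.

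A difference of at least 1.5-fold in both lines, downward for ARP-1 and upward for MM.1S, was found for 6 of the 32 genes: TRAP1, PHB1, TIMM8A, TIMM21, TOMM34 and TOMM5. The background for this is 3.24% of all tested genes. That far apart in the same direction in both lines were 0 of the 32, as were 0.0806% of all tested genes, so this 0 is no result about the 32. Promoters of 5 of the 6 were found in RefSeq (GRCh38.p14). They are shown because the 6 passed this rule, which itself sets their higher values on CTR-KO ARP-1 and MIF-KO MM.1S. Each line gives the 250 bases before the start of the gene, 5′ to 3′ on the gene's strand, with the motifs searched in capitals, which may overlap.
TRAP1, chr16:3717525-3717774, minus strand: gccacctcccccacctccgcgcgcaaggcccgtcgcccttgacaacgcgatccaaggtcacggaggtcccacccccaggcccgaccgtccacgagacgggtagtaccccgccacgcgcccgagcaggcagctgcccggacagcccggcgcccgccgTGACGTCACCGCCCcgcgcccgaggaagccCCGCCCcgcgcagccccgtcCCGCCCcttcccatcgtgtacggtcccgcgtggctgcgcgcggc
PHB1, chr17:49414883-49415132, minus strand: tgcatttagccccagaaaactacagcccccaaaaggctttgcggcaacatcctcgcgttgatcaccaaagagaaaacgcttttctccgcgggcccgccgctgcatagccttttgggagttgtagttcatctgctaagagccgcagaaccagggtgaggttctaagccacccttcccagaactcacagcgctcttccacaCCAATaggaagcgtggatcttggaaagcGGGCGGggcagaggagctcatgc
TIMM8A, chrX:101348743-101348992, minus strand: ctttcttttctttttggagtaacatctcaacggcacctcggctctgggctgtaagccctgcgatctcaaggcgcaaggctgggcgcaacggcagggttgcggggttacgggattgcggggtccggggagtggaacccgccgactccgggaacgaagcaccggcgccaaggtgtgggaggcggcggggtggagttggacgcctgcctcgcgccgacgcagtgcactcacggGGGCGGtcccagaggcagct
TIMM21, chr18:74148273-74148522, plus strand: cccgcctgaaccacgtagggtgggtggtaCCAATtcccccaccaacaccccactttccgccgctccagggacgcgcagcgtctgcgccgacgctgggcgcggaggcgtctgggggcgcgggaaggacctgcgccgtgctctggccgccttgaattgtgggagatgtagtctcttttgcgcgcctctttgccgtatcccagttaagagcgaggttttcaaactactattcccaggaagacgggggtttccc
TOMM34, chr20:44960398-44960647, minus strand: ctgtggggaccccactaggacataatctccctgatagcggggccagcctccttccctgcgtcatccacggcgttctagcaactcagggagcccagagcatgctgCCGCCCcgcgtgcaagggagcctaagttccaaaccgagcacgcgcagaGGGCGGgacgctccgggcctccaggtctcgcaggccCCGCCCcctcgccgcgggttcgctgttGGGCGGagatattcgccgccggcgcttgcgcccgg

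The motifs were searched on both strands of these 250 bases: the E-box CACGTG, the CCAAT box CCAAT, the ETS core CCGGAAG, the cyclic AMP response element TGACGTCA and the GC box GGGCGG. A match describes these letters alone, and the genes' values were known when the motifs were chosen. TRAP1 held a TGACGTCA, which 1.77% of 27195 promoters hold, and PHB1 and TIMM21 held a CCAAT, as 33% do. A GGGCGG was found in TRAP1, PHB1, TIMM8A and TOMM34, and in 42.4% of all promoters. Among the 29 tested genes with a promoter, 21 held GGGCGG, 10 CCAAT, 7 CCGGAAG, 3 CACGTG and 1 TGACGTCA. The 29 genes passed the filter on low values, and the 27195 promoters were not filtered. The sets are thus unlike, and no enrichment is read from these counts. CCGGAAG, which 8.82% of all promoters hold, was in those of TOMM20, TOMM70, PMPCB, TIMM23, TIMM10, PHB2 and TIMM13, and CACGTG, which 6.5% hold, in those of TOMM20, HSPD1 and HSPA9.

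At the outer membrane, TOMM40, TOMM34 and TOMM5 were at least 1.5-fold lower in MIF-KO ARP-1, and TOMM34 and TOMM5 higher in MIF-KO MM.1S. TOMM40, the channel of the TOM complex, had an intensity of 521 in MIF-KO ARP-1, against 1291 in CTR-KO ARP-1, and of 837 in MIF-KO MM.1S, against 572 in CTR-KO MM.1S. Its log2 difference was -1.31 in ARP-1, among the lowest 1.03% of tested genes there, and 0.55 in MM.1S, just short of 1.5-fold. A further probe set of TOMM40 differed by -0.94 and 0.23. The CTR-KO ARP-1 value stood above the other 3 arrays.

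TOMM5, a small subunit that helps to assemble the TOM complex, measured 289 in MIF-KO ARP-1, against 500 in CTR-KO ARP-1, and 453 in MIF-KO MM.1S, against 276 in CTR-KO MM.1S (log2 differences of -0.79 and 0.72). TOMM34, a cytosolic co-chaperone that keeps precursors unfolded and is no subunit of the complex, measured 253 in MIF-KO ARP-1, against 504 in CTR-KO ARP-1, and 378 in MIF-KO MM.1S, against 241 in CTR-KO MM.1S (-0.99 and 0.65). Both were thus high on CTR-KO ARP-1 and MIF-KO MM.1S and low on the other arrays.

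The receptors TOMM22 and TOMM70 pointed the same way with smaller sizes, at -0.49 and 0.27 for TOMM22 and -0.46 and 0.23 for TOMM70 (ARP-1, then MM.1S). TOMM20, the presequence receptor, had a difference of 0.17 in ARP-1 and of -0.0016 in MM.1S. SAMM50, the channel that inserts barrel proteins into the outer membrane, measured 273 in MIF-KO ARP-1, against 258 in CTR-KO ARP-1, and 256 in MIF-KO MM.1S, against 270.4 in CTR-KO MM.1S. Its 4 values spanned the least of the group. Over the 7 genes of the outer membrane group the median difference was -0.49 for ARP-1 and 0.27 for MM.1S.

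The small TIM chaperones and the disulfide relay had the lowest median of the 6 role groups in ARP-1, at -0.98. At least 1.5-fold lower in MIF-KO ARP-1 were 5 of 6 genes (background 11.9% of all tested genes). TIMM8A, which pairs with TIMM13 in a hexamer, measured 79.4 in MIF-KO ARP-1, against 183 in CTR-KO ARP-1, and 126 in MIF-KO MM.1S, against 74.8 in CTR-KO MM.1S (-1.21 and 0.76). TIMM13 measured 709 in MIF-KO ARP-1, against 1366 in CTR-KO ARP-1, and 1004 in MIF-KO MM.1S, against 809 in CTR-KO MM.1S (-0.95 and 0.31). Of these partners, TIMM8A alone passed 1.5-fold in MM.1S.

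TIMM8B, the paralog of TIMM8A, measured 137 in MIF-KO ARP-1, against 263 in CTR-KO ARP-1, and 195 in MIF-KO MM.1S, against 148 in CTR-KO MM.1S (-0.94 and 0.40). TIMM10 measured 181 in MIF-KO ARP-1, against 375 in CTR-KO ARP-1, and 261 in MIF-KO MM.1S, against 204 in CTR-KO MM.1S (-1.05 and 0.36). TIMM9, with which TIMM10 forms the other hexamer, measured 92.5 in MIF-KO ARP-1, against 99.3 in CTR-KO ARP-1, and 106 in MIF-KO MM.1S, against 117 in CTR-KO MM.1S (-0.10 and -0.14). TIMM9 was the exception of the group: its arrays lay together and its order was not that of TIMM10.

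CHCHD4, the oxidoreductase that forms disulfides in small TIM proteins on their arrival, measured 30.7 in MIF-KO ARP-1, against 61.6 in CTR-KO ARP-1, and 47.7 in MIF-KO MM.1S, against 49 in CTR-KO MM.1S. Its difference was -1.01 in ARP-1 and -0.04 in MM.1S, so it shared the direction of the small TIM genes in ARP-1 and not in MM.1S. The MIF-KO ARP-1 value lay under the filter level of 31.3, the median gene's intensity. Over the group the MM.1S median was 0.33, with 1 gene at least 1.5-fold higher (background 5.12%).

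**Figure D2:**
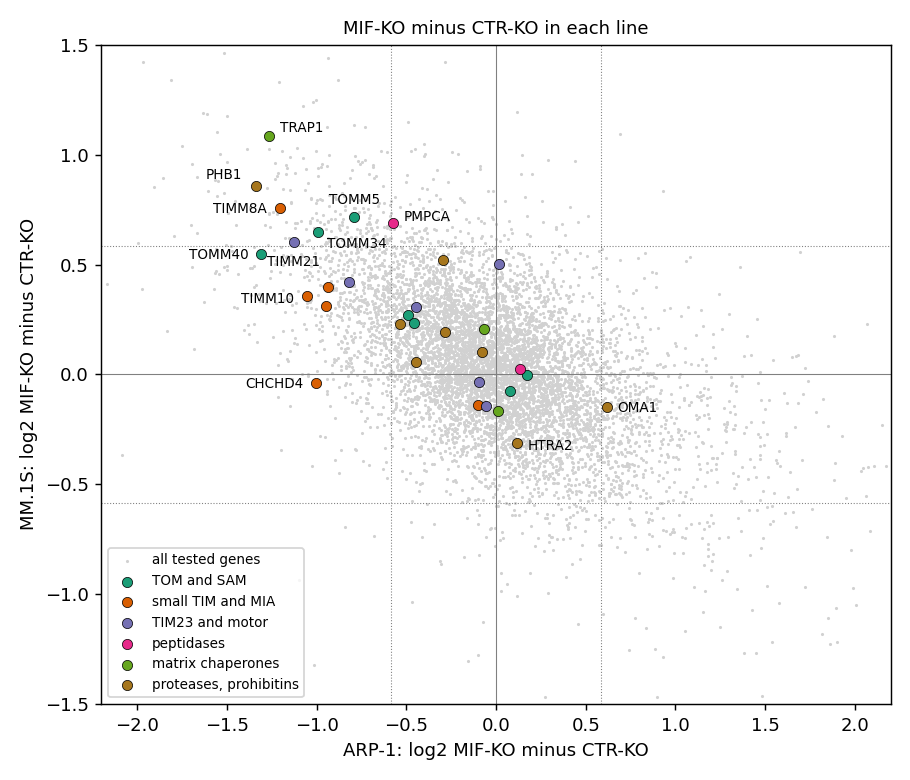
Log2 difference, MIF-KO minus CTR-KO, in ARP-1 (x axis) and in MM.1S (y axis) for the 32 genes, coloured by role, over all 7442 tested genes in grey, of which 38 lie outside the axes. Dotted lines mark 1.5-fold. The upper left corner holds 6 of the 32 genes, TRAP1 farthest out, and of the 32, OMA1 alone passes 1.5-fold to the right. The grey cloud also runs from upper left to lower right.

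In the TIM23 complex, TIMM21 and TIMM50 were at least 1.5-fold lower in MIF-KO ARP-1. TIMM21, which in yeast binds the TOM complex, measured 105 in MIF-KO ARP-1, against 230 in CTR-KO ARP-1, and 187 in MIF-KO MM.1S, against 123 in CTR-KO MM.1S (-1.13 and 0.60). TIMM50, the presequence receptor of the complex, measured 465 in MIF-KO ARP-1, against 819 in CTR-KO ARP-1, and 751 in MIF-KO MM.1S, against 561 in CTR-KO MM.1S (-0.82 and 0.42). Both were lowest on MIF-KO ARP-1 and highest on CTR-KO ARP-1.

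TIMM23, the channel, measured 758 in MIF-KO ARP-1, against 1031 in CTR-KO ARP-1, and 964 in MIF-KO MM.1S, against 779 in CTR-KO MM.1S (-0.44 and 0.31). Its value is uncertain, since the near-identical copy TIMM23B can share probes with it. TIMM44, which tethers the import motor to the channel, measured 367 in MIF-KO ARP-1, against 392 in CTR-KO ARP-1, and 542 in MIF-KO MM.1S, against 554 in CTR-KO MM.1S (-0.09 and -0.03). Its values in MM.1S lay above those in ARP-1, by a mean of 0.53 on the log2 scale (SE 0.30), which limma did not call.

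The paralogs TIMM17A and TIMM17B, alternative partners of the channel, had unlike values in MM.1S. TIMM17A, which YME1L1 degrades under stress, had a difference of 0.02 for ARP-1 and 0.50 for MM.1S, and TIMM17B of -0.05 and -0.14. The group of 6 had medians of -0.27 for ARP-1 and 0.36 for MM.1S, where TIMM21 alone passed 1.5-fold. With the stricter filter, which leaves out dimmer genes, its ARP-1 median was -0.63.

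The processing peptidase cuts presequences as a dimer of PMPCA and PMPCB, and its subunits differed unequally. PMPCA measured 590 in MIF-KO ARP-1, against 879 in CTR-KO ARP-1, and 809.6 in MIF-KO MM.1S, against 502 in CTR-KO MM.1S. Its difference was -0.58 in ARP-1, just under 1.5-fold, and 0.69 in MM.1S, while a further, dimmer probe set gave -0.41 and 0.10. PMPCB, the catalytic subunit, measured 762 in MIF-KO ARP-1, against 695 in CTR-KO ARP-1, and 750.1 in MIF-KO MM.1S, against 737 in CTR-KO MM.1S (0.13 and 0.03). MIPEP, which trims some precursors a further time, had intensities of 15.4 to 25.1 and did not pass the filter.

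Among matrix chaperones, TRAP1 differed by over 1.5-fold in both lines, and HSPA9 and HSPD1 in neither. TRAP1, the mitochondrial member of the HSP90 family, measured 503 in MIF-KO ARP-1, against 1209 in CTR-KO ARP-1, and 1202 in MIF-KO MM.1S, against 567 in CTR-KO MM.1S. That is 41.6% of CTR-KO in ARP-1 (log2 difference -1.27) and 212% in MM.1S (1.08), with the MM.1S difference among the top of the tested genes at percentile 99.6. The arrays formed a high pair, CTR-KO ARP-1 and MIF-KO MM.1S, and a low pair, with no value between. Over both lines the mean difference was -0.09 (SE 0.60).

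HSPA9, the HSP70 of the matrix that drives the import motor, measured 3925 in MIF-KO ARP-1, against 4114 in CTR-KO ARP-1, and 4398 in MIF-KO MM.1S, against 3807 in CTR-KO MM.1S (-0.07 and 0.21). HSPD1, the HSP60 chaperonin, measured 523 in MIF-KO ARP-1, against 519 in CTR-KO ARP-1, and 411 in MIF-KO MM.1S, against 461 in CTR-KO MM.1S (0.01 and -0.17). In MM.1S their differences had opposite signs. HSPD1 has many processed pseudogenes, so its probes may read more than 1 locus.

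**Figure D3:**
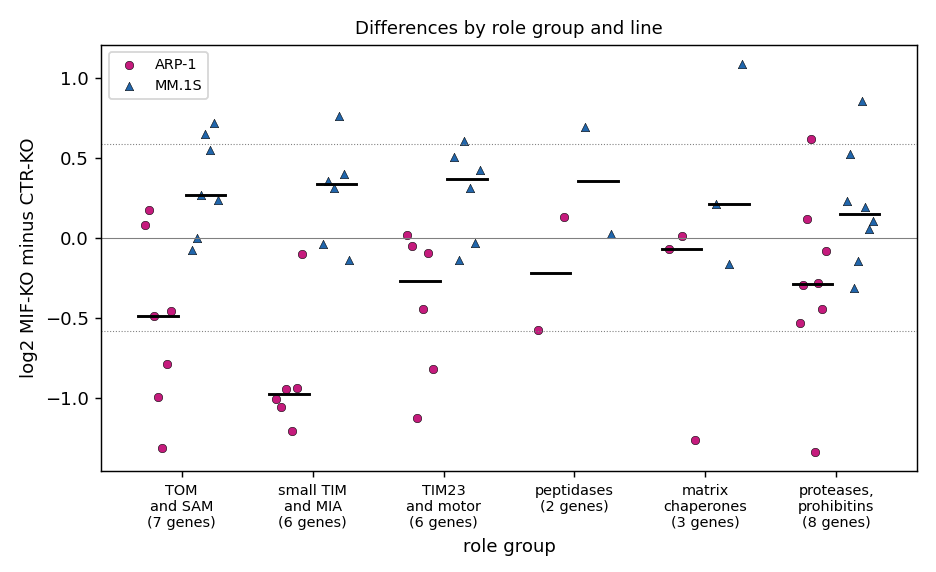
Log2 difference, MIF-KO minus CTR-KO, of each tested gene by role group, as circles for ARP-1 and triangles for MM.1S. Bars are group medians and dotted lines mark 1.5-fold. In ARP-1 the small TIM and MIA group has the lowest median, at -0.98, and in MM.1S the medians of the 6 groups lie between 0.15 and 0.36.

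Of 8 tested proteases and prohibitins, PHB1 passed 1.5-fold in both lines, OMA1 in ARP-1 alone, and the other 6 in neither. Of all tested genes, 22.8% passed either way in ARP-1 and 8.01% in MM.1S, so these counts lie near the background. Whether this group differs from the import groups was not tested. The group's median was -0.29 for ARP-1 and 0.15 for MM.1S, where it was the nearest to 0 of the 6 groups. YME1L1, the inner membrane protease that faces the intermembrane space, measured 1754 in MIF-KO ARP-1, against 1855 in CTR-KO ARP-1, and 2147 in MIF-KO MM.1S, against 1999 in CTR-KO MM.1S (-0.08 and 0.10).

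OMA1, a stress-activated protease that cleaves OPA1 and DELE1, measured 429 in MIF-KO ARP-1, against 280 in CTR-KO ARP-1, and 355 in MIF-KO MM.1S, against 393 in CTR-KO MM.1S. At 0.62 in ARP-1 and -0.15 in MM.1S, its signs were the reverse of the medians over the 32 genes. HTRA2, a serine protease of the intermembrane space, had the same signs at 0.12 and -0.31. The m-AAA subunits AFG3L2 and SPG7 differed alike in ARP-1, at -0.53 and -0.45, and by 0.23 and 0.06 in MM.1S. CLPX, the unfoldase of the ClpXP protease, had a difference of -0.29 for ARP-1 and 0.52 for MM.1S.

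PHB1 and PHB2 form the ring scaffold that surrounds the m-AAA protease, and each is unstable without the other. PHB1 measured 63.6 in MIF-KO ARP-1, against 161 in CTR-KO ARP-1, and 113 in MIF-KO MM.1S, against 62.4 in CTR-KO MM.1S (-1.34 and 0.86). In ARP-1 it was the most lowered of the 32 genes, at percentile 0.981 of all tested genes. The difference of PHB2 had the same signs and was smaller, at -0.28 and 0.19.

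Partner subunits of 1 complex thus differed unequally in several cases. PHB1 minus PHB2 gave a gap of -1.05 in the ARP-1 differences and 0.66 in those of MM.1S. For PMPCA minus PMPCB the gaps were -0.71 and 0.66 with the brighter PMPCA probe set, and -0.54 and 0.08 with the dimmer one, so the MM.1S gap rests on 1 probe set. For TIMM10 minus TIMM9 the gaps were -0.95 and 0.50. For AFG3L2 minus SPG7 they were -0.09 and 0.17, and for TIMM8A minus TIMM13 -0.26 and 0.45. Each gap compares the ratio of the partners between the MIF-KO and CTR-KO arrays of a line. The gaps are given with no test and no background of other gene pairs.

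**Figure D4:**
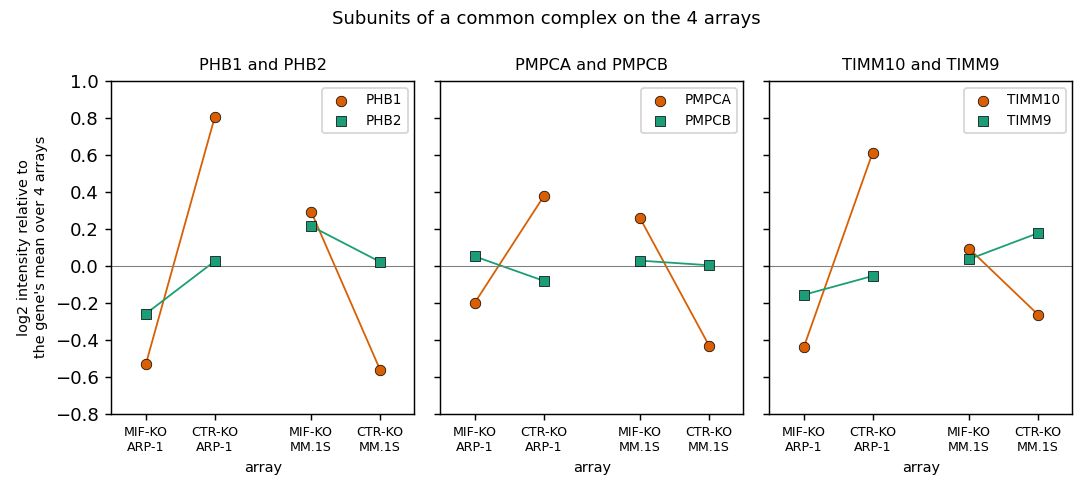
Log2 intensity of PHB1 and PHB2, PMPCA and PMPCB, and TIMM10 and TIMM9 on each array, relative to the gene's own mean over the 4 arrays (y axis). Lines join the MIF-KO and CTR-KO arrays of a line. The first named gene of each pair swings in opposite directions in the lines, while its partner stays nearer to its mean. PMPCA is drawn from its brighter probe set. The pairs with smaller gaps in ARP-1, AFG3L2 with SPG7 and TIMM8A with TIMM13, are not drawn.

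The lines were also set against each other within a condition, from the same 4 arrays, so these values are no further evidence. With the control hairpin, 12 of 32 genes were at least 1.5-fold lower in MM.1S (background 11.1%) and 0 higher (background 11.2%), with a median log2 difference of -0.37, beside -0.02 over all tested genes. With the MIF hairpin, 8 of 32 were at least 1.5-fold higher in MM.1S (background 8.22%) and 0 lower (background 4.37%), with a median of 0.42, beside 0.05. The limma test of MM.1S against ARP-1 over both conditions called 0 of the 32 and 0% of all tested genes, with 0 and 87 at an unadjusted p below 0.05.

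Of 30 other genes of the pathway listed, 19 had a named probe set and 16 passed the filter. At 1.5-fold, 2 of the 16 had lower values in MIF-KO ARP-1 and 0 had higher ones, while 0 passed in MM.1S (medians -0.23 and 0.10). With 11.9% of all tested genes lower in MIF-KO ARP-1, the 2 of 16 lie near the background, and CLPB and STOML2 are named only as the genes past 1.5-fold. CLPB, a disaggregase of the intermembrane space, measured 399 in MIF-KO ARP-1, against 754 in CTR-KO ARP-1, and 603 in MIF-KO MM.1S, against 440 in CTR-KO MM.1S (-0.92 and 0.46). STOML2, a scaffold of the inner membrane related to the prohibitins, measured 699 in MIF-KO ARP-1, against 1068 in CTR-KO ARP-1, and 945 in MIF-KO MM.1S, against 762 in CTR-KO MM.1S (-0.61 and 0.31). The limma test over both lines called 0 of the 16, with 0 at an unadjusted p below 0.05.

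Of 11 regulators of mitochondrial stress and biogenesis listed, 8 were tested, with medians of 0.26 for ARP-1 and -0.26 for MM.1S. At 1.5-fold, 3 had higher values in MIF-KO ARP-1, beside 10.9% of all tested genes, and 2 of these had lower values in MIF-KO MM.1S, beside 1.64% that passed both ways. PINK1, the kinase that marks mitochondria whose import has failed, measured 90.4 in MIF-KO ARP-1, against 50.4 in CTR-KO ARP-1, and 54.7 in MIF-KO MM.1S, against 94.8 in CTR-KO MM.1S (0.84 and -0.79). DDIT3, a transcription factor of the stress response, measured 36.5 in MIF-KO ARP-1, against 18 in CTR-KO ARP-1, and 38.7 in MIF-KO MM.1S, against 60.3 in CTR-KO MM.1S (1.02 and -0.64). The CTR-KO ARP-1 value of DDIT3 lay under the filter level of 31.3, as for CHCHD4 in MIF-KO ARP-1, so the size of its ARP-1 difference is uncertain. PINK1 and DDIT3 were each lowest on CTR-KO ARP-1 and highest on CTR-KO MM.1S.

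ATF4, which relays mitochondrial stress to the nucleus, measured 980 in MIF-KO ARP-1, against 585 in CTR-KO ARP-1, and 967 in MIF-KO MM.1S, against 1092 in CTR-KO MM.1S (0.74 and -0.17). The other 5 stayed under 1.5-fold in both lines. Of these, ATF5 lay just under it in ARP-1 in the opposite direction, at -0.58, and had -0.29 in MM.1S. Of the 8 regulators, 2 had a difference below 0 in ARP-1. The limma test over both lines called 0 of the 8 regulators, with 0 at an unadjusted p below 0.05. Whether the stress regulators have a part in the differences of the import genes was not tested.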

How the data were processed

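RNA of 4 arrays was labelled with a whole-transcript kit, per the labels' protocols. The authors deposited linear intensities per probe set, from 2.74 to 15935. The design had assumed log2 values, so log2 was taken first, with no pseudocount. The submitters' processing notes name RMA and limma. The background step and genome build were not given in the sources used here. Arrays carry no depth, and their number limits the precision.

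A platform annotation named 16098 of 53617 probe sets, each with 1 symbol. All 16098 matched RefSeq by Entrez ID and 0 were renamed. Of several probe sets, the one with the highest mean represented its gene. Genes were tested if their mean reached the median over genes (log2 4.97). The model was limma 3.58.1 in R 4.3.3 with cell line and condition as terms, eBayes with a trend and Benjamini-Hochberg adjustment over 7442 genes, with 1 residual degree of freedom and a prior of 3.99. Line pairs the arrays and comes from the labels. The fit was tested on simulated data. There the changes were the same in both lines, so this checks the code and not the power on these arrays. Within a line, 1.5-fold (0.58 on the log2 scale) marks a difference, with no test. Alternatives changed the filter, trend, scaling, offset, probe set rule, line term and ARP-1 labels.

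The genes, role groups and lists were chosen with earlier results of these data known. Members at least 1.5-fold apart in either line were named with their values, along with, in each role group, the member of highest mean and the one with the smallest difference between the lines. Of the other lists, genes at least 1.5-fold apart in either line were named, and ATF5, which lay just under that in ARP-1. Promoters came from RefSeq, with the first listed start of each gene. Python 3.11.15 was used.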

Additional observations from a re-analysis of the deposited data

Results flagged for a closer look

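The differences between the MIF-KO and CTR-KO arrays of a line had opposite signs in the lines for 6 genes, each at least 1.5-fold, and this difference between the lines was not tested. With 1 array per line and condition, the hairpin and other differences between arrays or cultures cannot be told apart. Given as the log2 difference in MM.1S minus that in ARP-1, it was 2.35 for TRAP1, 2.19 for PHB1, 1.96 for TIMM8A, 1.73 for TIMM21, 1.64 for TOMM34 and 1.51 for TOMM5. On all 6, CTR-KO ARP-1 was the highest of the 4 arrays. The rule that picked the 6 lets only CTR-KO ARP-1 or MIF-KO MM.1S be the highest. The 32.1% of all tested genes is therefore no fair background, and this is no result about the 6. In each, CTR-KO MM.1S lay within 1.5-fold of MIF-KO ARP-1, with differences between -0.09 for TIMM8A and 0.23 for TIMM21. Only 6.64% of all tested genes were at least 1.5-fold apart between these arrays, so this closeness is no result about the 6.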

How the results depend on the processing

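With the ARP-1 arrays exchanged, as their free-text descriptions would have it, limma called 401 genes and 7 of the 32 for MIF-KO against CTR-KO, where it called 0 as titled. The 7 had positive mean differences: TRAP1 1.17, PHB1 1.10, TIMM8A 0.98, TOMM40 0.93, TIMM21 0.87, TOMM34 0.82 and TOMM5 0.75. MIF goes with the titles. By construction the ARP-1 counts became 12 higher and 1 lower, and the ARP-1 medians turned to 0.45 over all 32, 0.49 (TOM and SAM), 0.98 (small TIM), 0.27 (TIM23), 0.22 (peptidases), 0.068 (matrix chaperones) and 0.29 (proteases). The stricter filter gave ARP-1 medians of -0.63 for TIM23 and -0.18 for proteases, as fewer genes entered. Without the filter the ARP-1 median of the peptidases was 0.10, since MIPEP entered, and with the mean of all probe sets their MM.1S median was 0.21. No other count moved by over 1.5 times and no other median by over 0.1 on the log2 scale, though with quantile normalization the small ARP-1 median of the matrix chaperones was -0.034, against -0.068 as deposited, and the count called for MM.1S against ARP-1 was 0 throughout. Of the 22 genes named by the rule, the mean difference changed sign for 14 without the ARP-1 pair, for 4 without the MM.1S pair, for 2 with arrays shifted to the same median and for 1 with the mean of all probe sets. With 1 pair left there was no test. The labels number no replicates, so the arrays were paired by cell line, and without that term the count of calls was also 0.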
